A study of Mus musculus with 4 samples.

Results

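The mitochondrial ribosome builds the few proteins that the mitochondrial chromosome encodes, all of them core subunits of the respiratory chain and ATP synthase. Its RNAs come from that chromosome, whereas every one of its proteins is encoded in the nucleus, translated in the cytosol and imported. The proteins of the large subunit carry Mrpl symbols and those of the small subunit Mrps symbols; some descend from the bacterial ribosome and others were added in mitochondria. In heart muscle, which depends on oxidative metabolism, inherited loss of single members such as MRPL3, MRPL44 or MRPS22 is known to cause cardiomyopathy in people.

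The genes described here are the protein-coding genes of GENCODE release M21 whose symbol begins with Mrpl or Mrps and that had at least 20 counts summed over the 4 libraries of the series. They were chosen by symbol and by that sum. Of the 54752 gene identifiers, 78 had such a symbol and 77 reached the limit, 48 Mrpl and 29 Mrps genes. No difference between groups entered the choice, but the gene family was proposed with results of these data known. The limit cut through no continuum: Mrps18b, Mrps18c and Mrps14 were the lowest inside it with 967, 1042 and 1049 counts, and the only gene outside was Mrpl53 with 0 counts in every library. Mrpl53 encodes a protein of the factor-binding stalk; 88.0% of its exon bases are also annotated to another protein-coding gene on the same strand, Gm42688 (7, 15, 18 and 13 counts), and how such shared bases were counted is unknown. All 77 genes passed the filter on low counts. Of them 30 encode large-subunit proteins shared with bacteria, 20 large-subunit proteins specific to mitochondria (Mrps30 and Mrps18a among them, whose proteins sit in the large subunit), 16 small-subunit proteins shared with bacteria and 10 small-subunit proteins specific to mitochondria. The remaining gene, Mrps36, was named as a ribosomal protein, but its product is known as a subunit of the oxoglutarate dehydrogenase complex.

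RNA of mouse hearts at postnatal day 14 was sequenced, 2 libraries labelled wild type and 2 labelled Carm1 mutant (mutant-labelled from here on). Carm1 is an arginine methyltransferase of histones and coactivators; allele, strain and sex remain unstated in the labels. Nothing says that libraries sharing a label were made from different mice, and the p-values then measure only a spread that may be technical. The series text speaks of neonatal hearts, whereas every sample is labelled with day 14.

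The wild-type libraries totalled 21719161 and 20778420 counts, the mutant-labelled ones 22217442 and 11677604. Carm1 itself was at 45.9 and 52.4 against 35.8 and 31.8 CPM (counts scaled to a common library size after TMM normalisation), a log2 fold change of −0.54 (SE 0.19, edgeR FDR 0.114), which does not pass and neither identifies nor contradicts an allele. Y-linked Ddx3y was at 32.9 and 37.8 CPM in wild type against 0.0399 and 0 in the mutant-labelled libraries (3 counts, the limit a count of 0 allows, are 0.221 CPM there), so sex and genotype cannot be told apart in any difference that follows. The markers of ventricular muscle were all present. The wild-type libraries differed from each other more than the mutant-labelled ones did (chi-square per degree of freedom 51.1 against 11.45). Each library's distance from the 4-library mean ran across genes with transcript length, at a Spearman's rho of −0.35 in wild type 1, 0.28 in wild type 2, 0.21 in mutant-labelled 1 and −0.0029 in mutant-labelled 2; genes are not independent replicates. Wild type 1 thus held relatively more of short transcripts. The median transcript of the 77 genes was 1339 bases long, against 2957 bases over all genes tested, so the values of the gene family and of its called members are also given without that library.

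Nearly all mitochondrial ribosomal protein genes were lower in the mutant-labelled hearts, most of them by less than the test could call. The log2 fold change (mutant-labelled minus wild type) was below 0 in 76 of 77 genes, against 48.4% of all genes tested, and its median was −0.59 (quartiles −0.75 and −0.42) against 0.02 over all 15283 genes tested. In edgeR's quasi-likelihood test with an FDR of 0.05, 7 of the 77 genes fell, 0 rose and 70 did not pass; over all genes tested 4.58% were called lower and 2.79% higher (7.37% in either direction). By an unadjusted p under 0.05 in the same test, 42 of the 77 members were lower, against 14.7% of all genes. Both wild-type libraries lay above both mutant-labelled libraries in 56 of the 77 genes, against a background of 28.7%, and the groups overlapped in the other 21. In 0 genes did both mutant-labelled libraries lie above both wild-type ones (background 30.3%).

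Summed over the 77 genes the level was 5408 CPM in wild type 1 and 3518 in wild type 2. It was 2753 CPM in mutant-labelled 1 and 3067 in mutant-labelled 2. The mutant-labelled mean was 65.2% of the wild-type mean, against 75.8% for the same sum over all genes tested. Wild type 1 was the highest of the 4 libraries in all 77 genes, and it exceeded wild type 2 by a median of 1.55-fold (range 1.04 to 2.005). Wild type 2 in turn exceeded the mean of the mutant-labelled pair in 63 genes, with a median of 1.19-fold (range 0.688 to 2.57). The gap between the wild-type libraries was the larger of these 2 ratios in 62 of 77 genes. As a plain share of all counts, with no TMM scaling, the 77 genes held 0.435% and 0.332% in wild type against 0.311% and 0.357% in the mutant-labelled libraries, and on that scale the groups overlapped. The members' own median was nearer 0 without wild type 1 and without TMM scaling. Minus the median of all genes it was −0.61 as reported, −0.28 without wild type 1 and −0.60 with library totals alone. Without wild type 1 the median log2 fold change was −0.27, with 63 of 77 genes below 0 and 14 called lower (background 8.76%; the lone wild-type library has no spread of its own), and with library totals alone it was −0.18 while the median of all genes was 0.41.

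**Figure D1:**
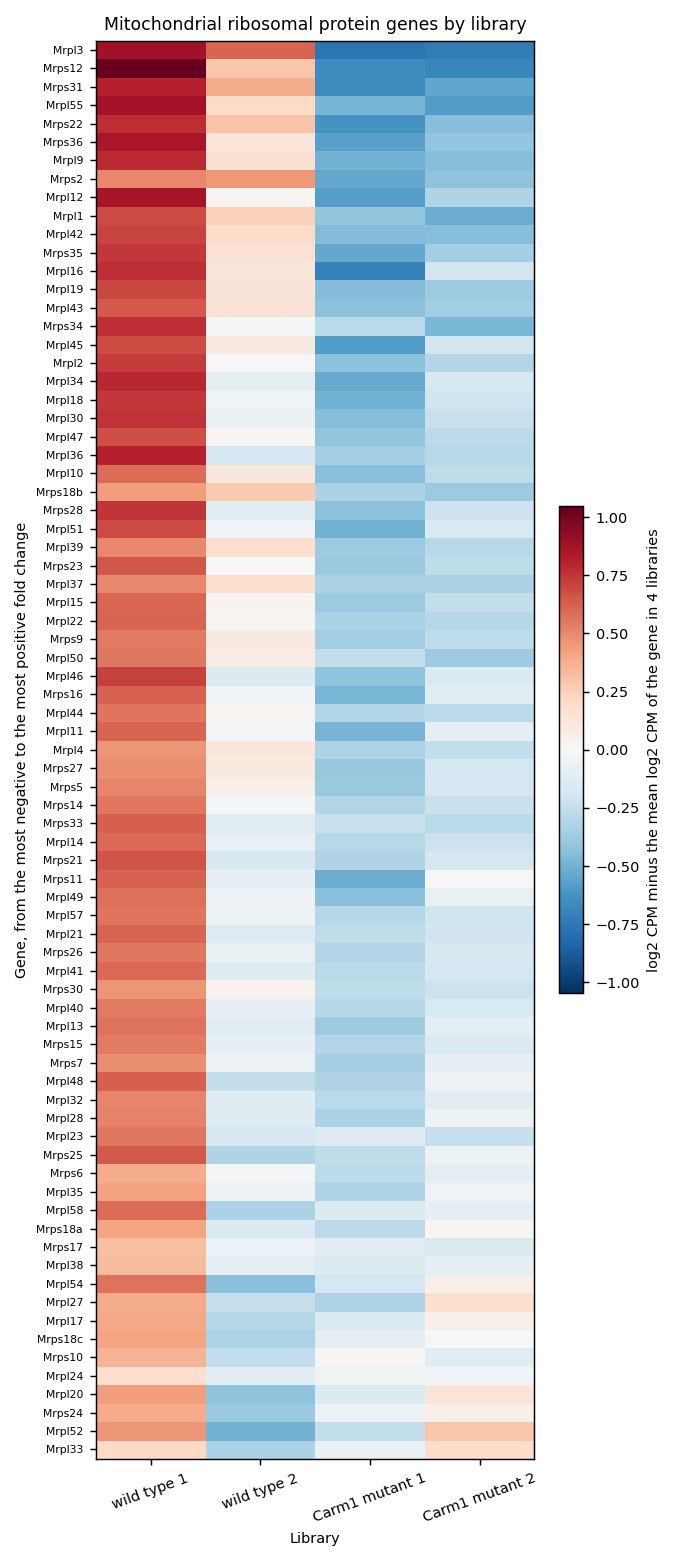
Level of each of the 77 genes (rows, from the most negative to the most positive fold change) in each library (columns), as log2 CPM minus the gene's own mean over the 4 libraries; red is above and blue below that mean. The column of wild type 1 is the highest in all 77 rows, and that of wild type 2 runs from red at the top (Mrpl3) to blue at the bottom (Mrpl33).

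Mrpl3 differed most. It encodes a large-subunit protein near the peptidyl transferase centre and lies on chromosome 9, 105053239 to 105079888, plus strand (GRCm38; ENSMUSG00000032563). Its counts were 1446 and 1345 against 663 and 368, or 82.7 and 68.7 against 26.4 and 27.1 CPM. The groups lay far apart and the mutant-labelled pair nearly coincided. The log2 fold change was −1.50 (SE 0.20, edgeR FDR 0.0101), 35.4% of the wild-type mean, and it was −1.37 without wild type 1. In the human counterpart of this gene, variants are a known cause of cardiomyopathy with deficient mitochondrial translation.

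Mrps12, which forms part of the decoding centre of the small subunit, was the other gene called in all 15 processings compared here. It lies on chromosome 7, 28739641 to 28741820, minus strand (ENSMUSG00000045948), and was at 49.1 and 29.1 CPM in wild type against 15.0 and 14.8 in the mutant-labelled libraries. The wild-type libraries differed 1.69-fold from each other, yet both lay above the mutant-labelled pair. Its log2 fold change was −1.39 (SE 0.27, edgeR FDR 0.0264), and −0.98 without wild type 1.

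In the other 5 called genes, too, the mutant-labelled libraries lay close together. Mrps31, a mitochondria-specific small-subunit protein (chromosome 8, 22411361 to 22429665, plus strand), was at 57.2 and 42.6 against 20.6 and 22.2 CPM, a log2 fold change of −1.22 with SE 0.21 and edgeR FDR 0.0206. Mrpl55, which builds part of the central protuberance of the large subunit (chromosome 11, 59202486 to 59206134, plus strand), was at 116 and 73.3 against 45.3 and 42.4 CPM (−1.11, SE 0.25, edgeR FDR 0.0394). Mrps22, a mitochondria-specific small-subunit protein whose human variants are linked to multisystem disease (chromosome 9, 98588730 to 98601660, minus strand), was at 23.8 and 17.2 against 9.05 and 10.2 CPM (−1.09, SE 0.23, edgeR FDR 0.0336). In each of these genes both wild-type libraries lay above both mutant-labelled ones. So they did in 56 of the 77 members and 28.7% of all genes tested.

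For Mrps2 the wild-type pair agreed best. This small-subunit protein shared with bacteria (chromosome 2, 28468066 to 28471178, plus strand) was at 35.3 and 34.1 against 17.1 and 18.6 CPM, a log2 fold change of −0.96 (SE 0.18, edgeR FDR 0.0256) with wild type 1 and −0.95 without it. Mrpl1, which forms the mobile stalk by which spent tRNA leaves the ribosome (chromosome 5, 96209493 to 96266727, plus strand), was at 30.4 and 22.4 against 14.3 and 13.2 CPM (−0.94, SE 0.22, edgeR FDR 0.0418). All 7 genes were also called without wild type 1, but that fit holds a single wild-type library, whose spread is assumed to be that of the close mutant-labelled pair, so its calls are easier to reach. Without mutant-labelled 1 the calls were Mrpl3 and Mrps12 alone (backgrounds of lower calls 1.15%), and the same 2 genes were called without mutant-labelled 2 (0.987%).

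The promoters of called genes are shown for reference. The common direction of these genes came with the choice of genes called lower, and 76 of 77 members had it. Each sequence is the 150 bases before the RefSeq start (GRCm38.p6), with capitals at matches to the motifs listed after the sequences. The windows of Mrps31, Mrpl55 and Mrpl1 are left out because annotated exons cover 120, 50 and 34 of their bases; that of Mrpl3 has 29 such bases at its end, and its marked letters lie within them.
Mrpl3 (chr9:105053118-105053267, plus strand): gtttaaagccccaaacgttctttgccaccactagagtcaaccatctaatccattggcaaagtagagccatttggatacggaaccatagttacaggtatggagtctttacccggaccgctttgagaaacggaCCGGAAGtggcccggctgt
Mrps12 (chr7:28741822-28741971, minus strand): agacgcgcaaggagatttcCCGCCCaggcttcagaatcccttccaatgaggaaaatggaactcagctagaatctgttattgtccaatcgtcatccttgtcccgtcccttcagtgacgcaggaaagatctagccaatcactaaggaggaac
Mrps22 (chr9:98601680-98601829, minus strand): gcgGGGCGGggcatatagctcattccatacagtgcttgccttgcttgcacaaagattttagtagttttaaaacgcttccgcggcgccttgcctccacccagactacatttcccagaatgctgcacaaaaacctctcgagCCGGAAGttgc
Mrps2 (chr2:28467916-28468065, plus strand): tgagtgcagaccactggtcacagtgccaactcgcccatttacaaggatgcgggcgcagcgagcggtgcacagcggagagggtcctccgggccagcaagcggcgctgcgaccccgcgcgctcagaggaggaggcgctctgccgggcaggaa
The motifs were searched on both strands in windows from 250 bases before to 50 after each RefSeq start, which 68 of the 77 genes had. CCGGAAG, the core bound by ETS factors such as GABP, was found in 25 of 68 genes (36.8%) against 19.2% of the 10379 tested protein-coding genes with a window. In the printed windows it lies 19 bases before the start in Mrpl3 and 11 bases before it in Mrps22. AAGATGGC, the core bound by YY1, was found in 12 (17.6%) against 5.09%, and GCGC followed by any base and TGCGC, bound by NRF1, in 13 (19.1%) against 10.98%. GGGCGG, bound by Sp1, was found in 34 (50%) against 68.3%, TATAAA in 5 (7.35%) against 8.80%, and AAGGTCA, bound by ERR receptors, in 4 (5.88%) against 3.89%. The median log2 fold change was −0.56 in genes with CCGGAAG and −0.61 in those without, −0.62 and −0.58 for the NRF1 letters, −0.55 and −0.62 for AAGATGGC, −0.56 and −0.62 for GGGCGG, −0.64 and −0.58 for AAGGTCA, and −0.44 and −0.59 for TATAAA, differences that were not tested. Among the 7 called genes 3 had CCGGAAG, 1 had AAGATGGC, 4 had GGGCGG and 0 had the NRF1 letters.

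**Figure D2:**
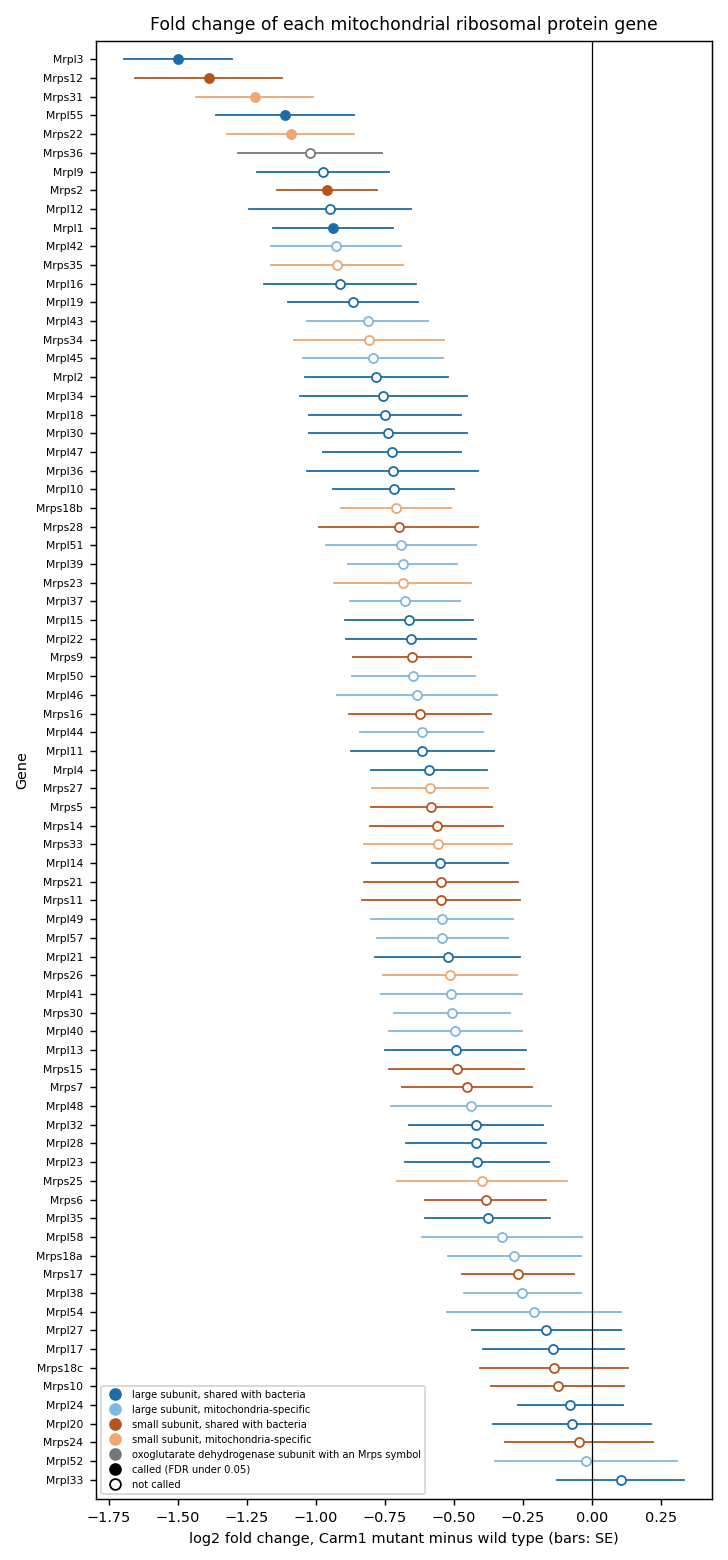
log2 fold change of each of the 77 genes (mutant-labelled minus wild type; bars are the SE of the edgeR fit, n = 2 libraries a group), coloured by subunit and origin; filled circles were called. All but Mrpl33 lie left of 0, and the 7 called genes come from both subunits.

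Genes just short of the threshold stood close to the called ones. Mrpl9, a large-subunit protein shared with bacteria, was at 50.04 and 32.4 against 20.6 and 21.4 CPM (log2 fold change −0.97) with an edgeR FDR of 0.050002, just above the limit. Mrps36, the oxoglutarate dehydrogenase subunit, was at 79.7 and 48.1 against 29.7 and 33.3 CPM (−1.02, SE 0.26, edgeR FDR 0.0552). Mrpl42, a mitochondria-specific large-subunit protein, was at 371 and 260 against 165 and 166 CPM (−0.93, SE 0.24, edgeR FDR 0.0547). Without wild type 1 all 3 had smaller fold changes (Mrpl9 −0.64, Mrps36 −0.63 and Mrpl42 −0.66).

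At the other end, several genes were near 0. Mrpl33, a small protein of the large subunit, was the only gene above 0, at 48.6 and 33.6 against 40.2 and 48.0 CPM (log2 fold change 0.10, SE 0.23, edgeR FDR 0.807). Mrpl52 was at 59.5 and 30.5 against 35.9 and 52.7 CPM (−0.02, SE 0.33), and Mrps24 at 104 and 60.8 against 76.9 and 82.6 CPM (−0.05, SE 0.27). Mrpl20 (−0.07, SE 0.29) and Mrpl24 (−0.08, SE 0.19) were alike. In these 5 genes the groups overlapped. Without wild type 1 the values were 0.38 for Mrpl33, 0.52 for Mrpl52, 0.38 for Mrps24, 0.40 for Mrpl20 and 0.06 for Mrpl24, none of them called.

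The subunits had close medians. The median log2 fold change was −0.63 over the 48 Mrpl genes (3 called lower, 6.25%) and −0.56 over the 29 Mrps genes (4 called lower, 13.8%). Over all genes tested 4.58% were called lower. Both medians were −0.27 without wild type 1. Counts of Mrpl genes exceeded those of Mrps genes 2.49-fold and 2.44-fold in wild type and 2.36-fold and 2.39-fold in the mutant-labelled libraries. By origin, large-subunit genes shared with bacteria had a median of −0.66 (3 of 30 called lower, background 4.58%) and mitochondria-specific large-subunit genes −0.54 (0 of 20). Small-subunit genes shared with bacteria had −0.55 (2 of 16) and mitochondria-specific small-subunit genes −0.70 (2 of 10). The differences among these groups were not tested.

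Members of the functional sites of the large subunit lay below 0, as 76 of 77 members did. For the stalks, which recruit translation factors and release tRNA, the median of 5 genes was −0.72, with Mrpl1 called (1 of 5, background 4.58%). Mrpl12, whose protein forms the factor-recruiting stalk, was at 248 and 138 against 91.3 and 109 CPM (log2 fold change −0.95, SE 0.29, edgeR FDR 0.0871). For the 8 genes of the central protuberance the median was −0.47, with Mrpl55 called (1 of 8, background 4.58%). The groups overlapped in 4 of these 8 genes, against 21 of the 77 members and 6265 of all 15283 genes tested. For the 8 genes around the exit of the nascent chain it was −0.64, with 0 called; among them Mrpl45, whose protein anchors the ribosome to the inner membrane, was at 80.3 and 53.3 against 33.4 and 43.8 CPM (−0.79, SE 0.25, edgeR FDR 0.0939). Without wild type 1 the medians were −0.48 for the stalks, −0.10 for the central protuberance and −0.34 for the exit.

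The 8 members listed here for human cardiomyopathy or multisystem disease lay below 0, as 76 of 77 members did. This list was drawn up with earlier results of these data known and need not hold every member linked to disease. In each of the 8 genes both wild-type libraries lay above both mutant-labelled ones (56 of the 77 members and 28.7% of all genes did so). The median was −0.88 (−0.43 without wild type 1), and Mrpl3, Mrps22 and Mrps2 were called (7 of the 77 members and 4.58% of all genes were called lower). Mrpl44, a large-subunit protein with an RNase III-like fold, was at 42.4 and 29.4 against 23.2 and 23.6 CPM (log2 fold change −0.62, SE 0.22, edgeR FDR 0.122). Mrps16 was at 55.5 and 35.4 against 26.0 and 33.2 CPM (−0.62, SE 0.26, edgeR FDR 0.163). Mrps34 was at 49.5 and 28.7 against 23.8 and 20.8 CPM (−0.81, SE 0.27, edgeR FDR 0.106), and 63.4% of its exon bases lie opposite exons of Mapk8ip3, whose reads cannot be told apart if strand was not kept, and 37% are shared with Nme3 on the same strand (0 counts in every library). Mrps14 was at 20.02 and 13.5 against 11.05 and 11.6 CPM (−0.56, SE 0.24, edgeR FDR 0.175). Mrps34 and Mrps14 did not pass, and neither did Mrpl44, Mrps16 or Mrpl12.

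Levels per length differed widely between members although the ribosome holds about equal amounts of most of these proteins. Here the scale is CPM per kb of the longest protein-coding transcript, whose length is an assumption for genes with several ends. The mean over the 4 libraries had a median of 23.7 CPM per kb, and the 90th percentile was 10.4 times the 10th. Mrpl42 stood highest at 361 CPM per kb, followed by Mrps21 (156), Mrpl34 (139), Mrpl4 (133) and Mrpl12 (111). Mrps25 (3.11), Mrpl19 (3.80), Mrpl17 (4.10), Mrps14 (4.68) and Mrpl1 (5.65) stood lowest. Their annotated longest transcripts ran from 2999 to 7300 bases, against 488 to 1316 bases for the 5 highest, and the part of the chosen transcript in the order was not tested. The order itself was nearly the same in all libraries: as a description over 77 genes that share libraries, the rank correlation was 0.99 within each group and 0.96 to 0.97 over the 4 pairs of a wild-type and a mutant-labelled library.

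**Figure D3:**
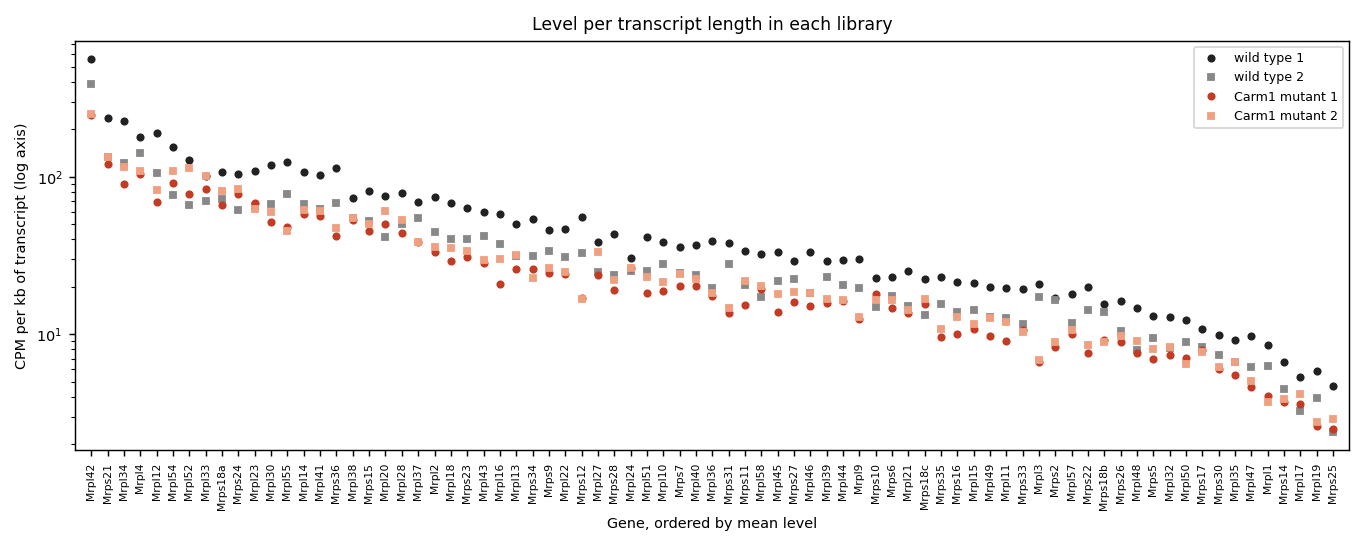
Level of each gene in CPM per kb of its longest protein-coding transcript (log axis), 1 point for each library, ordered by the mean of the 4 libraries. Mrpl42 stands highest at a mean of 361 and Mrps25 lowest at 3.11, and the black circles of wild type 1 lie above the other libraries in every gene.

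Relations of the fold change with length and abundance among the members were weak. Over the 77 genes, as a description, Spearman's rho of the log2 fold change was −0.11 with transcript length and −0.03 with mean level. The ratio of wild type 1 to wild type 2 ran with length at −0.37 among the members and −0.50 over all genes tested. With each library corrected for smooth trends with transcript length and GC content, the median of the members was −0.54 and that of all genes −0.002; 31 members were then called lower (background 11.9%) and 0 higher, the 7 above among them.

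The 3 paralogs of the bacterial S18 family had different values. Mrps18b, a small-subunit protein, was at 16.9 and 15.0 against 9.89 and 9.57 CPM, with no overlap of the groups and a log2 fold change of −0.71 (SE 0.20, edgeR FDR 0.0682). Mrps18c, the paralog at the bacterial position, was at 18.3 and 10.9 against 12.8 and 13.8 CPM (−0.14, SE 0.27), with overlapping groups. Mrps18a, the paralog of the large subunit, was at 94.8 and 64.2 against 58.8 and 72.1 CPM (−0.28, SE 0.24), also overlapping. Without wild type 1 the log2 fold changes were −0.64 for Mrps18b, 0.26 for Mrps18c and 0.009 for Mrps18a. Differences between the paralogs' fold changes were not tested, and the paralogs were chosen after their values were seen.

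Copies and overlaps limit some of these values, since how reads matching several places were treated is unknown. Of the 77 genes, 27 had an annotated pseudogene copy of at least 90% identity and 32 shared exon bases with another gene, 27 of them on the opposite strand; 31 had neither. The copies mostly held few counts. Gm6419, 96.3% identical to Mrpl42, had 316, 254, 165 and 155 counts, and Gm5776, 99.7% identical to Mrps33, had 104, 94, 99 and 47. Gm13552, 99.8% identical to Mrps18b, had 26, 28, 33 and 24 counts. The values of Mrpl42, Mrps33 and Mrps18b are therefore uncertain. Among the 31 genes with neither a copy nor a shared exon 6 were called lower (19.4%, background 4.58%), with a median of −0.66 (−0.34 without wild type 1).

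Neighbours that start beside a mitochondrial ribosomal gene on the other strand lay on both sides of 0. For 19 members a protein-coding gene on the opposite strand starts within 1000 bases upstream, or overlaps the member's start by at most 100 bases, and 18 of these neighbours were tested. Of them 1 was called lower (Apba3, an adaptor protein gene beside Mrpl54; background 4.58%) and 0 higher (background 2.79%), and 9 lay below and 9 above 0. Their median log2 fold change was −0.06, against −0.62 for the members beside them; this difference was not tested. Sars2, the mitochondrial seryl-tRNA synthetase, starts 172 bases from Mrps12 and was at 19.3 and 16.0 against 13.6 and 16.6 CPM (−0.24, SE 0.21), where Mrps12 was called. Ndufs6, a complex I subunit gene whose annotated start overlaps that of Mrpl36, was at 303 and 178 against 164 and 217 CPM (−0.33, SE 0.29), and Mrpl36 at 36.2 and 18.2 against 16.1 and 16.9 CPM (−0.72, SE 0.31). Mrpl46 and Mrps11 overlap each other head to head by more than that and were not counted; they had log2 fold changes of −0.63 and −0.55. The members lie on 17 chromosomes, at most 11 on any of them (chromosome 11), and none is on X.

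Among mitoribosomal proteins that carry other symbols 1 of 5 fell (background 4.58%) and 0 rose. Ptcd3, which binds mRNA at the small subunit, was at 82.0 and 66.1 against 32.4 and 32.5 CPM (log2 fold change −1.19, SE 0.20, edgeR FDR 0.0195). Dap3 (−0.55), Gadd45gip1 (−0.37), Aurkaip1 (−0.19) and Chchd1 (−0.18) did not pass. The median of the 5 genes was −0.37, and 0.009 without wild type 1.

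The ribosome's RNAs, read from the mitochondrial chromosome, did not pass. mt-Rnr1 was at 3871 and 2666 against 2069 and 2537 CPM (log2 fold change −0.50, SE 0.28, edgeR FDR 0.284). mt-Rnr2 was at 9615 and 6645 against 4891 and 6025 CPM (−0.57, SE 0.30, edgeR FDR 0.252). Whether rRNA was depleted before sequencing remains unstated, so these levels need not be those in the tissue.

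Of 31 genes that assemble the mitoribosome or modify its RNA, 2 fell, 0 rose and 29 did not pass (median −0.51), and this share of 6.45% was near the background of 4.58%. Mrm3, a methyltransferase of the large-subunit rRNA, was at 24.99 and 16.5 against 8.57 and 9.499 CPM (log2 fold change −1.20, edgeR FDR 0.0312). Fastkd2, an RNA-binding protein of large-subunit assembly, was at 22.2 and 17.7 against 10.4 and 11.05 CPM (−0.89, edgeR FDR 0.0424). Without wild type 1 the median of this list was −0.31, with 3 called lower (background 8.76%).

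Among translation factors of mitochondria 5 of 17 fell (29.4%, background 4.58%) and 0 rose. Taco1, which activates translation of a cytochrome c oxidase subunit, was at 34.2 and 27.5 against 7.06 and 7.58 CPM (log2 fold change −2.08, SE 0.21, edgeR FDR 0.00529). Lrpprc, which stabilises mitochondrial mRNA, was at 146 and 139 against 52.1 and 53.5 CPM (−1.43, SE 0.19, edgeR FDR 0.0103). Gfm1, an elongation factor, was at 178 and 158 against 72.5 and 70.6 CPM (−1.23, SE 0.19, edgeR FDR 0.0169). Tufm and Gfm2 were the remaining called genes. In Taco1, Lrpprc and Gfm1 the wild-type libraries lay close together and far above the others. The median of the list was −0.63, and −0.49 with 7 called lower without wild type 1 (background 8.76%).

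Genes of aminoacyl-tRNA synthesis and of RNA metabolism had medians below 0. Of 20 genes that charge mitochondrial tRNA, all lay below 0 and 2 fell (10%, background 4.58%), Qrsl1 (log2 fold change −1.07) and Iars2 (−0.79); the median was −0.52, and −0.47 without wild type 1. Of 23 genes of mitochondrial transcription and RNA processing, 4 fell (17.4%, background 4.58%) and 0 rose, with a median of −0.47 (−0.37 without wild type 1). Of these genes 18 lay below 0 and 5 above it. Among the 5, Mterf1a (28, 14, 39 and 15 counts) and Mterf1b (2, 9, 11 and 15 counts) held few counts. In 6 of the 23 the groups overlapped, against 21 of the 77 members and 6265 of all 15283 genes tested. Grsf1, a protein of the mitochondrial RNA granules, was at 177 and 148 against 73.3 and 77.1 CPM (−1.11, edgeR FDR 0.0228). Tfb2m, a factor that the mitochondrial RNA polymerase needs to start, was at 19.8 and 19.4 against 9.93 and 8.98 CPM (−1.05, edgeR FDR 0.0244), and Fastkd1 fell by 0.85 on the log2 scale (edgeR FDR 0.0364).

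Of 8 regulators known to act on mitochondrial genes, 1 fell (the coactivator Ppargc1a) and 0 rose, against backgrounds of 4.58% lower and 2.79% higher. Nrf1 was at 12.2 and 13.3 against 15.2 and 11.3 CPM (log2 fold change 0.06, SE 0.22), Gabpa at 32.9 and 37.1 against 34.0 and 29.2 CPM (−0.15, SE 0.19), and Yy1 at 53.1 and 59.2 against 54.4 and 53.5 CPM (−0.06, SE 0.18). Their groups overlapped. Ppargc1a, a coactivator of mitochondrial gene expression, fell from 141 and 244 to 79.9 and 40.4 CPM (−1.67, SE 0.37, edgeR FDR 0.0390). Esrra (−0.75, edgeR FDR 0.0642), Tfam (−0.86, edgeR FDR 0.0819), Ppargc1b (−0.41, edgeR FDR 0.327) and Myc (0.31, edgeR FDR 0.477) did not pass.

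Cytosolic ribosomal proteins and complex I subunits, the latter built in part from mitochondrial translation products, give the values of other large protein families. The 82 tested genes with Rpl or Rps symbols had a median log2 fold change of −0.11, and 0.35 without wild type 1. Of them 1 was called lower (1.22%, background 4.58%) and 77 had overlapping groups, against 6265 of all 15283 genes tested. The 38 complex I subunits had a median of −0.66, and −0.24 without wild type 1. Of these subunits 3 were called lower (7.89%, background 4.58%) and 12 had overlapping groups. Wild type 1 exceeded wild type 2 by a median of 1.79-fold in cytosolic ribosomal genes and 1.70-fold in complex I genes, against 1.55-fold in the mitochondrial ribosomal genes and 0.998-fold over all genes tested. The differences between the families were not tested.

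The summed level of ventricular cardiomyocyte markers was lower in both mutant-labelled libraries than in both wild-type ones. The sums of fibroblast, endothelial and smooth muscle markers were higher, although 4 of 7 smooth muscle markers lay below 0. Few markers of any list passed the test. The 10 ventricular cardiomyocyte markers summed to 91495 and 77893 CPM in wild type against 46307 and 49796 CPM. That is 56.7% of the wild-type mean, against 75.8% for the same sum over all genes tested. All 10 lay below 0, 1 (Pln) was called lower (background 4.58%), and in 1 (Myl2) the groups overlapped. Over all 15283 genes tested the groups overlapped in 6265. Without wild type 1 the median of these 10 markers was −0.71. The 8 fibroblast markers summed to 3375 and 3903 against 5754 and 6106 CPM, with 1 (Postn) called higher (background 2.79%) and 7 not passing. All 8 lay above 0, in 1 (Pdgfra) the groups overlapped, and without wild type 1 their median was 0.66. The 8 endothelial markers summed to 1058 and 1465 against 1876 and 1601 CPM, with 0 called, all 8 above 0 and 3 whose groups overlapped. Their median was 0.36, and 0.15 without wild type 1. Smooth muscle markers summed to 2094 and 2396 against 2447 and 2573 CPM. Of this Acta2 alone held 1430.4 and 1517.4 against 1562.6 and 1692.5 CPM. The median of the smooth muscle markers was −0.04, and −0.07 without wild type 1. Macrophage markers summed to 226 and 188 against 222 and 246 CPM, and erythroid markers to 711 and 506 against 539 and 863 CPM. Without wild type 1 the medians of these 2 lists were 0.23 and 0.21. No marker of these lists was at 0 in every library. Of 8 skeletal muscle markers Myh1 and Myh4 were at 0 in all 4 libraries, and 5 were tested with 0 called; Ckm, which heart also expresses, was at 2143 and 1281 against 790 and 797 CPM, and Acta1, likewise, at 249 and 213 against 297 and 587 CPM. The part of cell composition in the lower mitochondrial ribosomal values was not tested, and in RNA of heart tissue fewer muscle cells and less RNA per cell cannot be told apart.

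**Figure D4:**
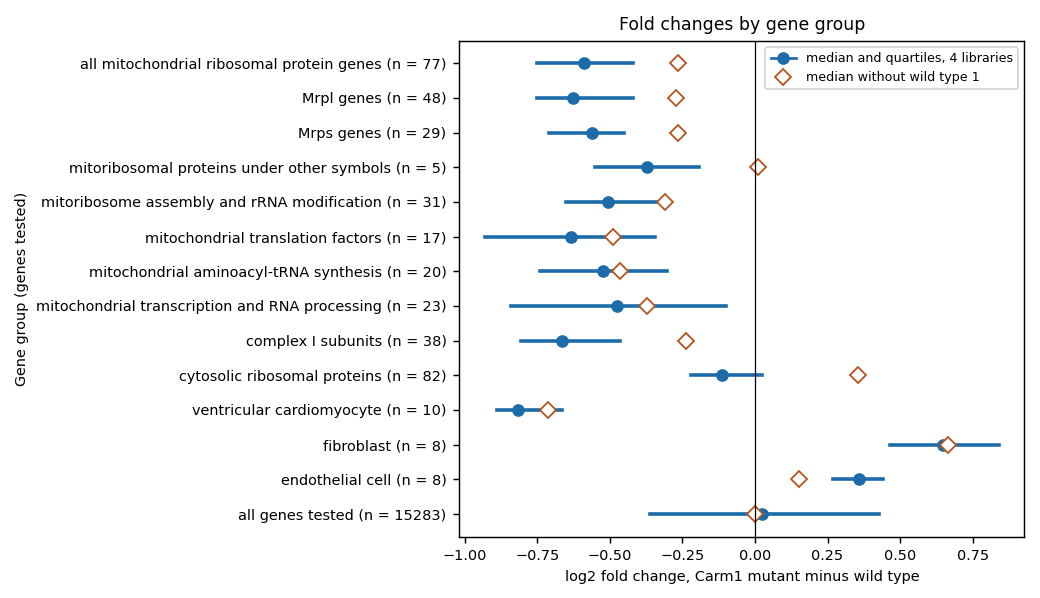
Median log2 fold change (circles) with quartiles (bars) over the tested genes of each group, and the median without wild type 1 (open diamonds). The mitochondrial ribosomal genes lie at −0.59 and move to −0.27 without that library, whereas cytosolic ribosomal genes lie at −0.11 and move to 0.35.

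The number of members called depended on the processing, and so did the number below 0. Below 0 lay 59 of 77 members with library totals alone and 63 without wild type 1. With length and GC correction 71 lay below 0, with or without the block, and without mutant-labelled 1 it was 72. In the other processings 74 to 77 members lay below 0. With DESeq2 size factors 7 members were called lower (background 4.47%), with 1 CPM in 2 libraries 8 (5.09%), with mitochondrially encoded genes left out 8 (4.56%) and with the replicate number as a block 9 (4.2%). Library totals alone gave 3 (1.35%), the DESeq2 Wald test 20 (7.29%) and no filter on low counts 33 (5.52%). Length and GC correction with the block gave 30 (11.5%), a block of crossed numbers 48 (14%) and leaving out wild type 2 gave 71 (19.5%). In each of these, as without the other libraries and with the length and GC correction alone, 0 members were called higher. The backgrounds of higher calls were 2.6% with DESeq2 size factors, 3.35% with 1 CPM in 2 libraries, 2.79% without mitochondrially encoded genes, 3.8% with the block, 7.78% with library totals, 3.87% by the DESeq2 Wald test and 4.42% with no filter. They were 7.8% with length and GC correction, 8.3% with the block added, 13.3% with crossed numbers, 5.52% without wild type 1, 16% without wild type 2, 1.52% without mutant-labelled 1 and 1.4% without mutant-labelled 2.

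**Figure D5:**
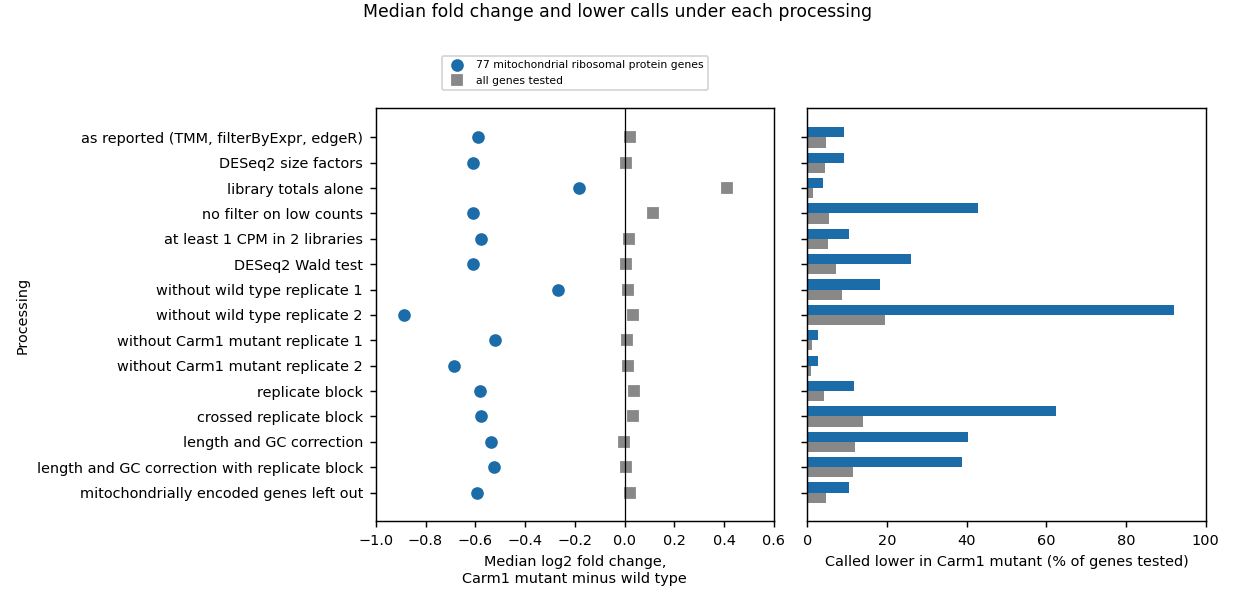
Left, median log2 fold change of the 77 genes (circles) and of all genes tested (squares) under each processing; right, share of each called lower. The members' median stays below 0 throughout, from −0.89 without wild type replicate 2 to −0.18 with library totals alone, whereas their lower calls range from 2 to 71 genes.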

How the data were processed

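RNA-seq libraries of mouse heart (2 labelled wild type, 2 Carm1 mutant) were made by BGI, per the labels. FastQC, HISAT2 and mm10 appear in the submitters' processing notes, with versions, counting program, annotation and strandedness not given in the sources used here. Whole-number counts for each gene were deposited by the authors, and columns were matched to samples by title.

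Members and gene lists were chosen with earlier results of these data known. GENCODE M21 (GRCm38) named 54723 of the 54752 identifiers. In R 4.3.3, filterByExpr left 15283 genes; libraries were scaled by TMM (factors 0.806, 0.943, 1.13 and 1.16) and tested with edgeR 4.0.16 (glmQLFit, glmQLFTest; genotype only, 2 residual degrees of freedom), with Benjamini-Hochberg adjustment over all genes tested (FDR, threshold 0.05). The SE is the log2 fold change divided by the square root of F. The procedure was tested on simulated data. DESeq2 1.42.0 was an alternative; copies were matched with BLAST+ 2.17.0+. Lists are described by counts and medians, with no test. Counting error is the only error a floor of 3 counts covers. Named genes are Carm1, the members called (up to 12), the 5 highest and 5 lowest per length, the 5 at either end of the fold changes among members of at least 5 CPM, the 3 nearest the limit of 20 counts, the disease list, up to 3 called genes of each companion list, both mitochondrial rRNAs and 8 regulators; others were chosen after their values were seen. Promoter sequences are from RefSeq (GRCm38.p6).

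Same-numbered libraries did not deviate together (correlation of deviations from the group means −0.25, a single value, since with 2 libraries a group the other pair mirrors it), so the replicate number was used only in an alternative. Further alternatives were DESeq2 size factors, library totals, other filters, leaving out each library or the mitochondrially encoded genes, and smooth length and GC trends removed per library (loess, span 0.3). A crossed block and a restriction to members without copies or shared exons were added after the data were seen.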

Additional observations from a re-analysis of the deposited data

How the results depend on the processing

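The median of the 77 genes stayed below 0 in all 15 processings and with only the 31 genes without copies or shared exons (−0.66). It was −0.18 with library totals alone, which shift the median of all genes by 0.39, and −0.89 to −0.27 when each library was left out. The number called lower was 7, and 3 with library totals alone, 33 with no filter on low counts, 20 by the DESeq2 Wald test, 31 with the length and GC correction, 30 with that correction and a replicate block, and 2 to 71 when each library was left out. No member was called higher in any of them. Same-numbered libraries share only a number (correlation of deviations −0.25), and the replicate block gave 9 lower calls and a median of −0.58, and crossing the replicate block, wild type 1 with mutant-labelled 2, gave 48, an alternative chosen after seeing the data. The cause of these changes in number was not tested. With 2 libraries a group, depth limits the smallest library (11677604 counts) most.

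The medians of the companion lists with library totals alone were 0.049 for proteins under other symbols, −0.11 for assembly, −0.23 for translation factors, −0.12 for tRNA charging and −0.076 for RNA processing, and with 1 CPM in 2 libraries −0.57 for RNA processing. Over the libraries left out they ran from −0.73 to 0.0092, −0.63 to −0.31, −0.86 to −0.49, −0.70 to −0.45 and −0.65 to −0.37 in that order. Members near 0 changed sign. Library totals raise fold changes throughout by construction: the members' median minus that of all genes was −0.60 there and −0.61 as reported. With them Mrpl17 was at 0.28, Mrpl20 at 0.35, Mrpl24 at 0.32, Mrpl52 at 0.41, Mrps18c at 0.28, Mrps24 at 0.37 and Mrps25 at 0.029. With the replicate block Mrpl52 was at 0.027 and Mrps24 at 0.0010. With the length and GC correction Mrpl20 was at 0.050, Mrpl24 at 0.045, Mrps18c at 0.022 and Mrps24 at 0.043, and with the replicate block added they were at 0.063, 0.044, 0.027 and 0.056. With a library left out the ranges were −0.49 to 0.23 for Mrpl17, −0.48 to 0.40 for Mrpl20, −0.25 to 0.057 for Mrpl24, −0.18 to 0.38 for Mrpl33, −0.47 to 0.52 for Mrpl52, −0.50 to 0.26 for Mrps18c, −0.42 to 0.38 for Mrps24, −0.84 to 0.14 for Mrps25. For settings other than library totals the cause was not tested. Leaving out 1 library leaves its group with a single one, assumed to vary like the other pair.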
